A study of Rattus norvegicus with 71 samples.

Results

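The genes described here encode the nuclear subunits of respiratory complexes II to V. They were taken as every gene of the count table whose symbol begins with Cox4, Cox5, Cox6, Cox7, Cox8, Uqcr or Atp5, or is Sdha, Sdhb, Sdhc or Sdhd. The rule found 46 of the 17494 genes in the table, 4 for complex II, 8 for complex III, 17 for complex IV and 17 for complex V. It also takes in genes that are not fixed subunits, such as Atp5if1, an inhibitor of the ATP synthase, Cox7a2l, a factor of respiratory supercomplexes, and Cox6c-ps1, a pseudogene. It leaves out Cyc1 of complex III and Ndufa4 of complex IV, and the subunits that the mitochondrial genome encodes were not analysed here.

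RNA was sequenced from 71 wild-type Sprague-Dawley rat offspring at PND2 (postnatal day 2), 35 male and 36 female, 1 library for each animal, as poly-A libraries from a coronal slice with the hippocampus and the cortex and deeper structures beside it. Saline controls were the 24 offspring of 7 litters whose dams received Freund's adjuvant and saline. MARA-AB exposed offspring (exposed in utero to maternal autoantibodies related to autism) were 47 animals of 20 litters whose dams received the same adjuvant with peptides of the antigens in the name of the pattern. Batch 1 held 12 controls of 3 litters and 16 LDHA/B+CRMP1+STIP1 animals of 4 litters. Batch 2 held 12 controls of 4 litters, 9 LDHA/B+CRMP1+STIP1 animals of 5 litters, 8 CRMP1+CRMP2 animals of 4 litters, 6 CRMP1+GDA animals of 3 litters and 8 STIP1+NSE animals of 4 litters. Batch 2 is the series of sample titles that begin with MAR, and batch 1 holds the other titles, which begin with IgG, FcRn or RNA. By their groups these match the batches that were processed and sequenced apart in the study. The study also describes collection cohorts, which are not in the sample labels used here. Littermates share a dam, 3 of the 4 patterns have animals in batch 2 only, and the study's text gives conflicting accounts of whether first or second litters were sequenced. In a bulk slice, fewer cells of a type and less RNA per cell cannot be told apart.

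Complex II, succinate dehydrogenase, oxidizes succinate to fumarate in the tricarboxylic acid cycle and passes the electrons to ubiquinone. Complex III carries electrons from ubiquinol to cytochrome c, complex IV passes them on to oxygen, and both pump protons across the inner mitochondrial membrane. Complex V, the ATP synthase, lets the protons flow back and makes ATP. Neurons spend much of their ATP on ion pumping and synaptic signalling, and the brain relies more on oxidative phosphorylation as it matures after birth. Nuclear respiratory factor 1 (NRF1), GA-binding protein (GABP), YY1 and SP1 are transcription factors known to bind promoters of many of these genes.

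Promoter sequences, credited to RefSeq (assembly GRCr8, whereas the counts were made on rn7), were found for 38 of the 46 genes. Atp5md, Atp5pd, Cox4i2, Cox6a1, Cox6c, Cox6c-ps1, Uqcr11 and Uqcrb had no entry. In the window from 250 bases before the start to 50 bases after it, the NRF1 letters (GCGCA, any base, then GCGC) occurred on either strand in 7 of the 38 (18.4%, against 8.04% of 12287 genes of the table), in Sdha, Uqcrc1, Atp5f1c, Atp5mc2, Atp5mc3, Atp5me and Atp5po. The GABP letters CCGGAAGT occurred in 5 (13.2%, against 6.52%), in Cox5b, Cox8a, Uqcrh, Uqcrq and Atp5f1a. The YY1 letters AAGATGGCG occurred in 3 (7.89%, against 2.94%), in Uqcrc1, Atp5mf and Atp5pf. The SP1 letters GGGGCGGGG occurred in 2 (5.26%, against 17.5%), in Sdhc and Cox7a2l. The NRF1 letters can match both strands at 1 site, as they did in Atp5mc2, Atp5me and Atp5po, and no other motif matches overlapped. These matches describe letters and show no binding.

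The 250 bases before the start are shown for Sdha and Cox5b, whose levels differed between the batches of controls, and for Atp5mc1, Atp5mc2 and Atp5mc3, which encode the same mature subunit c and of which Atp5mc1 was read at the lowest level. They run 5′ to 3′ on the strand of the gene, and capitals mark the NRF1 match in Sdha and Atp5mc2 and the GABP match in Cox5b.
Sdha (GRCr8 chr1:30764303-30764552, plus strand): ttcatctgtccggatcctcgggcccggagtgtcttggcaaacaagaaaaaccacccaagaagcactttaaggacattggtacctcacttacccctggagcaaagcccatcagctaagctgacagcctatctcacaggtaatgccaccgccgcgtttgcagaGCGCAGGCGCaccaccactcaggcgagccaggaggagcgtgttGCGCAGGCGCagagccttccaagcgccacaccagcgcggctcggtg
Cox5b (GRCr8 chr9:46417587-46417836, plus strand): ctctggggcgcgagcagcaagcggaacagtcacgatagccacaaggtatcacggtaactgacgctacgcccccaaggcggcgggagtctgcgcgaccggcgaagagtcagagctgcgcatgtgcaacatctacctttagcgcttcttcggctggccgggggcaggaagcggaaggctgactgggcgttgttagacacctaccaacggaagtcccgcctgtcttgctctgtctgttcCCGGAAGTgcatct
Atp5mc1 (GRCr8 chr10:81523346-81523595, minus strand): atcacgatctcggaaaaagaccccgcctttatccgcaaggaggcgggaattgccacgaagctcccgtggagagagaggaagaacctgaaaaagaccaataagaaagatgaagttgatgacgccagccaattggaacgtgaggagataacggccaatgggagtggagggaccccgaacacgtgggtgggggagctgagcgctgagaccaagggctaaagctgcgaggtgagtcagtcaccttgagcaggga
Atp5mc2 (GRCr8 chr7:135678219-135678468, minus strand): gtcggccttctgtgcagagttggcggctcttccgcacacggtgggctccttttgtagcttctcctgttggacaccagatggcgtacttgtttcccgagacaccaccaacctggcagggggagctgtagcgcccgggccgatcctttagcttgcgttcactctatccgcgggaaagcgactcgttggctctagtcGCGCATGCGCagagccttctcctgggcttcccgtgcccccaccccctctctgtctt
Atp5mc3 (GRCr8 chr3:79220665-79220914, minus strand): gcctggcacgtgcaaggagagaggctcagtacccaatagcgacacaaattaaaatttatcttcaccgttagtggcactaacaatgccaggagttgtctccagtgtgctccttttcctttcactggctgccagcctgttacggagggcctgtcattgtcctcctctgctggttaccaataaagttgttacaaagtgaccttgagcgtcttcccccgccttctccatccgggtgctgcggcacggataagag
Sdha held 3 NRF1 matches, whose first bases lay at -89, -46 and -1 from the start. The one at -1 runs across the start and is not capitalized. The match in Atp5mc3 began 7 bases after the start, outside the part shown, and Atp5mc1 held none of the 4 motifs. No member of complex IV held the NRF1 letters, while Cox5b and Cox8a held those of GABP.

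Total counts ran from 24880182 to 36234952 per library, with a median of 28439195, and these 46 genes took from 0.5345% to 0.8957% of them. Neuronal markers were read in every library (lowest values 2766 CPM for Tubb3 and 256.1 CPM for Snap25), as were Neurod6 of cortical and hippocampal neurons (100.4 CPM) and the glial genes Slc1a3 (194.4 CPM) and Fabp7 (237.1 CPM). The slices differed in choroid plexus, whose 9 markers summed to 4.937 to 112.9 CPM in controls of batch 1 and to 140 to 2931 CPM in controls of batch 2. Of the 46 genes, 43 had at least 1 CPM in at least 8 libraries and were tested. Cox8b, the muscle form of subunit 8, had 12 counts in 7 libraries, Cox8c, its testis form, had 5 counts in 2 libraries, and Cox6c-ps1 had 0 counts in all 71. A count of 0 allows up to 3 counts in a library, or 0.0808 to 0.122 CPM at these depths, counting error only.

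Levels of different genes were compared as RPKM, read counts scaled by summed exon length in kilobases and by the TMM-scaled library total. The median level over animals of a complex II gene ran from 68.3 RPKM for Sdhd, a membrane anchor of the complex, to 112.2 RPKM for Sdhb, its iron-sulfur subunit. The catalytic flavoprotein Sdha had a median of 68.97 RPKM (58.37 to 85.42), and Sdhc, the other anchor, 107.5 RPKM. In complex III the lowest was Uqcrb, a small subunit that helps to bind ubiquinone, at 51.99 RPKM, and the highest Uqcrc1, a core subunit, at 138.4 RPKM. The second core subunit Uqcrc2 (113.1 RPKM), the Rieske iron-sulfur protein Uqcrfs1 (125.4 RPKM) and the small subunits Uqcrh (131.9), Uqcr10 (130.4), Uqcr11 (119.3) and Uqcrq (77.14) lay between them. Complex II thus covered a span of levels that lay within the range of complex III.

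Complex IV ranged widest. Cox6a1 (492.2 RPKM, range over animals 318.5 to 741.7) and Cox4i1 (486 RPKM) led it, and both are the forms of a regulatory subunit that most tissues use. Cox8a (301 RPKM), Cox5a (283.7), Cox6c (273.8), Cox6b1 (256.3), Cox5b (221.2) and Cox7c (211.1) followed, and then Cox7a2 (129), Cox7a2l (106.2) and Cox7b (101.2). The tissue-restricted forms came last, with the testis form Cox6b2 at 37.95 RPKM, the lung form Cox4i2 at 3.461 RPKM and the muscle form Cox6a2 at 1.378 RPKM, the lowest level of the 43 genes.

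Complex V held the highest level, Atp5f1b, the catalytic beta subunit, at 687.1 RPKM (544.7 to 852.2). Its partner alpha, Atp5f1a, had 413.4 RPKM. The other F1 subunits were read at 308.6 (epsilon, Atp5f1e), 233.8 (delta, Atp5f1d) and 205.9 RPKM (gamma, Atp5f1c). Of the membrane part, Atp5md had 324.5 RPKM, Atp5mg 250.5, Atp5mf 235.7 and Atp5me, the lowest of the complex, 105.2. The stalk subunits lay between 159.1 RPKM (Atp5pf) and 222.1 RPKM (Atp5po), with Atp5pd at 212.2 and Atp5pb at 171.7, and the inhibitor Atp5if1 was read at 203 RPKM. The 3 genes of subunit c had 267.8 (Atp5mc3), 267.5 (Atp5mc2) and 158.7 RPKM (Atp5mc1). Read per length and as single genes, alpha and beta had higher medians than every other member of complex V. In single animals epsilon reached 530.1 RPKM and alpha at most 479.9 RPKM.

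**Figure D1:**
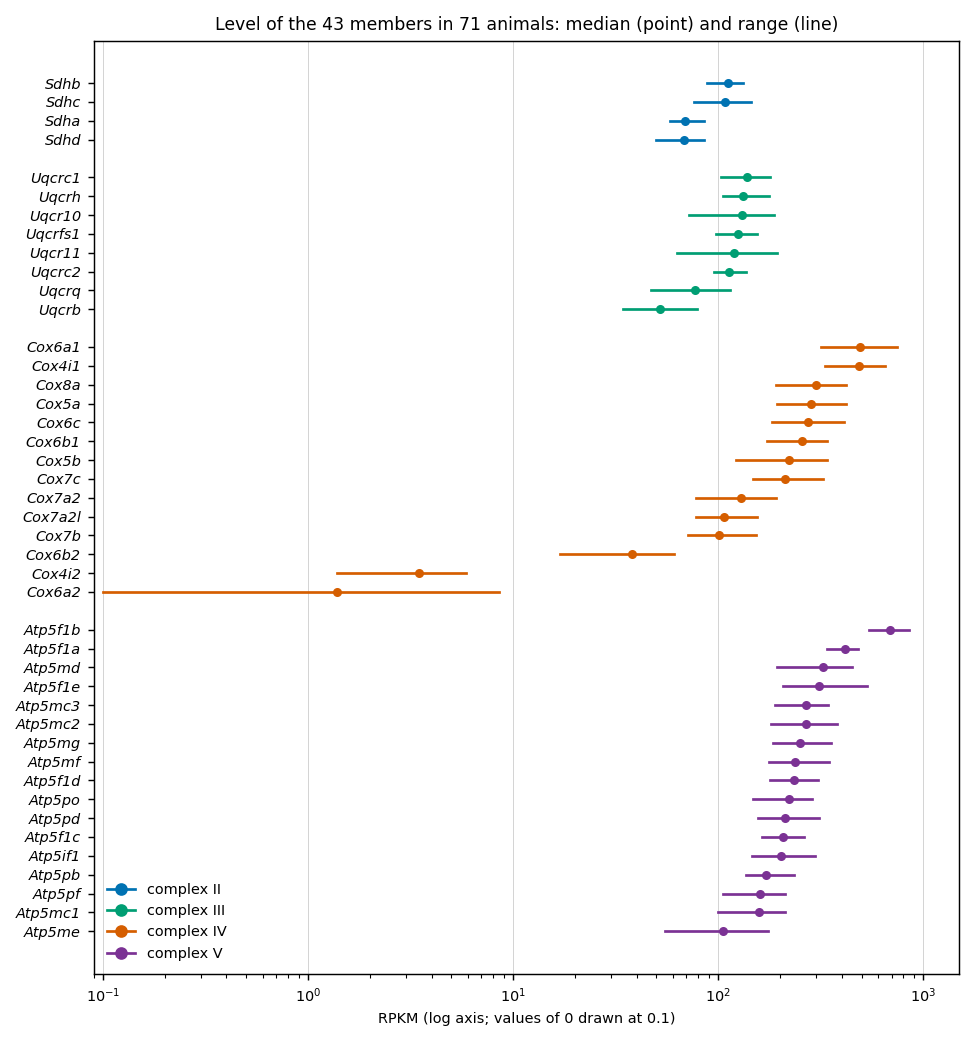
Level of the 43 tested genes by complex, in RPKM on a log axis. Points are medians and lines the range over 71 animals; Atp5f1b is highest at 687.1 RPKM, and Cox4i2 and Cox6a2 sit apart at the bottom of complex IV.

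The median of the gene medians was 88.3 RPKM in complex II, 122.4 in complex III, 216.2 in complex IV and 233.8 in complex V. To compare the complexes within an animal, the mean log2 RPKM over the tested genes of a complex was taken. Complex V exceeded complex II by a median of 1.44 (1.17 to 1.71 over 71 animals), complex III by 1.16 (1.04 to 1.26) and complex IV by 1.18 (0.96 to 1.45). By this mean complex V was the highest in all 71 animals, and complex III exceeded complex II in all 71 (median 0.28, lowest 0.04). Complex IV and complex III did not differ beyond their spread, with a median difference of -0.03 (-0.27 to 0.27). The place of complex IV rests on its rare isoforms: without Cox4i2, Cox6a2 and Cox6b2, a choice made after seeing the data, its mean was 1.38 above complex II, 1.11 above complex III (0.95 to 1.22) and 0.06 below complex V (complex V minus complex IV, -0.03 to 0.15), and complex V was then higher in 67 of the 71 animals. With Cox8b, Cox8c and Cox6c-ps1 counted in, complex IV was below complex II, with a median difference of -0.89.

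Several subunits have alternative genes. Cox4i2 made up a median of 0.745% of the summed Cox4 RPKM (0.294 to 1.38), Cox6a2 0.245% of Cox6a (0 to 1.68) and Cox6b2 12.9% of Cox6b (6.5 to 17.6). Subunit c of the ATP synthase was read from 3 genes, with 39.0% from Atp5mc2 (35.7 to 45.6), 38.1% from Atp5mc3 (34.4 to 41.1) and 23.1% from Atp5mc1 (18.8 to 25.8). Atp5mc1 was below both others in all 71 animals, and Atp5mc2 and Atp5mc3 overlapped. Cox7a1, the muscle partner of Cox7a2, was not analysed here. Rodent genomes hold processed pseudogenes of many of these genes, and how the authors counted reads that map to several places, or whether they used strand, is not given in the sources used here, so levels of single isoforms are uncertain to that extent.

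The levels of the complexes varied together from animal to animal. Pearson's r between the mean log2 RPKM of complexes III and V was 0.967 over 71 animals, and with complex II it was 0.879 for complex III, 0.86 for complex V and 0.745 for complex IV. Without the 3 rare isoforms complex IV had an r of 0.991 with complex V, 0.964 with complex III and 0.866 with complex II, and values within each batch ran close to these (0.845 to 0.993). These correlations are descriptions, since the animals share litters, batches and one scaling of each library. With the group means taken out, the median r between 1 gene of a complex and 1 of another was 0.70 to 0.78, and within a complex 0.72 to 0.81. The ranges of these medians overlapped, so the genes of a complex did not stand out by following each other.

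Single genes differed in how far they followed. Atp5f1e and Cox4i1 had the highest median r with the other 42 genes (0.847 each), and Cox4i2 (0.148), Cox6a2 (0.33) and Cox6b2 (0.359) the lowest. Next lowest were Uqcrc2 (0.584) and Sdha (0.63). Over the same animals, the mean of the 43 genes had an r of 0.962 with that of 34 complex I subunits and 0.91 with that of 20 other mitochondrial proteins such as the carriers and pores of its membranes. It also had an r of 0.879 with 76 ribosomal protein genes and of 0.83 with 543 genes under 800 bases of exon that are in none of these lists. It was -0.065 with 8 neuron markers and -0.31 with 16 regulators of mitochondrial biogenesis. Genes that moved with the complexes thus included ones with no mitochondrial role.

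The size of the swings differed by complex. From the lowest to the highest animal the complex II mean changed 1.49-fold (SD 0.129 on the log2 scale), complex V 1.78-fold (0.188), complex III 1.89-fold (0.192) and complex IV 2.10-fold (0.235). Without the 3 rare isoforms complex IV changed 1.96-fold (0.215), closer to complex III. Among 40 genes, leaving out the 3 rare isoforms, the SD of log2 RPKM had a Spearman's rho of -0.711 with summed exon length and of 0.094 with level. Long genes tended to be steady, as Atp5f1a (1847 bases, SD 0.117), Uqcrc2 (1830 bases, 0.115) and Sdha (2277 bases, 0.13) show, and short ones to vary more, as did Atp5me (289 bases, 0.371) and Uqcr11 (510 bases, 0.358). There were exceptions: Uqcrq (1494 bases, 0.296) and Uqcrb (1041 bases, 0.251) varied more than the short Cox6b1 (442 bases, 0.22). The median exon length was 1184.5 bases in complex II, 1064 in complex III, 482.5 in complex IV and 601 in complex V. The part of exon length in the spread of a gene was not tested.

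**Figure D2:**
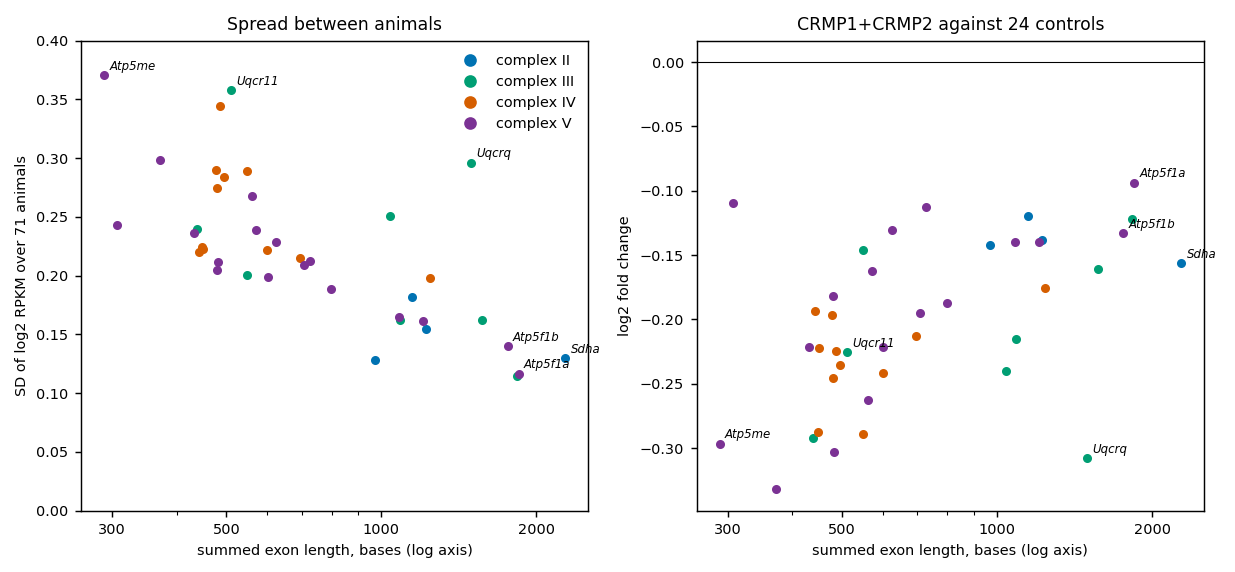
Left, SD of log2 RPKM over 71 animals against summed exon length (log axis) for 40 genes without Cox4i2, Cox6a2 and Cox6b2. Right, log2 fold change of CRMP1+CRMP2 against 24 controls for the same genes; in both panels colours mark the complex, the shorter genes spread more (rho = -0.711) and their fold changes lie lower (rho = 0.525).

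How alike littermates were was estimated within each batch. In batch 2, with 20 litters, the share of variance between animals of a group that lay between litters was 0.841 in complex II, 0.79 in complex III, 0.851 in complex IV and 0.782 in complex V. The SD between litters there was 0.126 to 0.219 and within litters 0.055 to 0.093. In batch 1, with 7 litters of 4 animals, the share was 0.226 in complex II and was estimated as 0 in the other complexes, and the SD within litters was 0.105 to 0.242. Littermates of batch 2, where the CRMP1+CRMP2 animals were sequenced, therefore do not count as independent. Whether the batches differ in this was not tested.

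**Figure D3:**
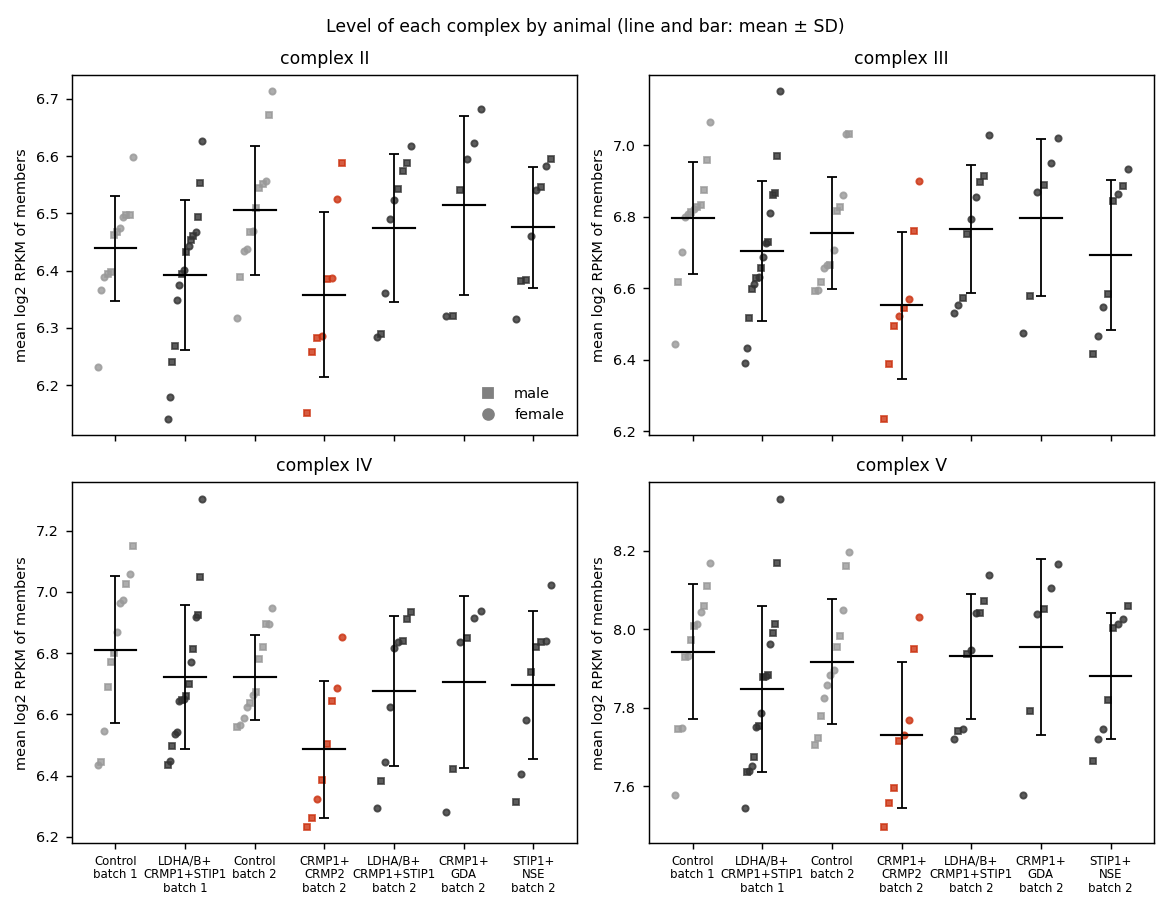
Mean log2 RPKM of the tested genes of each complex by animal, for the 7 groups of animals (squares males, circles females, line and bar mean ± SD). In each panel the CRMP1+CRMP2 animals have the lowest mean, 6.36, 6.55, 6.49 and 7.73 for complexes II to V, and they overlap with the 12 controls of batch 2.

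Whether exposure as such moved these genes was asked by setting the 47 exposed animals against the 24 controls, with 1 surrogate variable as covariate. None of the 43 genes passed FDR < 0.1 in edgeR or in DESeq2, and 4 of all 12477 genes did in edgeR (0.0321%). At an unadjusted p under 0.05, 5 were lower, where 4.19% of all genes were. The fold changes were small and ran in 1 direction: 42 of the 43 were below 0, against 6013 of 12477 genes, with a median log2 fold change of -0.06 (0.00 over all genes). By complex the median was -0.05 in complex II, -0.07 in complex III, -0.07 in complex IV and -0.06 in complex V. Since the genes vary together, 42 genes below 0 are far from 42 independent observations.

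Sdha had the smallest p of the members. It was 72.4 ± 6.88 RPKM in controls (SD, n = 24; 58.37, 71.6 and 85.42 as lowest, median and highest) and 69.2 ± 5.84 RPKM in exposed animals (n = 47; 59.84, 68.08 and 80.75), with a log2 fold change of -0.08 (SE 0.0281, edgeR adjusted p = 0.342). The ranges overlapped almost wholly. Cox7c, a small subunit of complex IV, was read at a median of 227 RPKM in controls and 201.8 RPKM in exposed offspring, which is -0.13 on the log2 scale (SE 0.0702, adjusted p = 0.496). Uqcr10 had -0.12 (SE 0.0574, adjusted p = 0.471), Atp5if1 -0.12 (SE 0.0491, adjusted p = 0.393), Cox6b2 -0.13 (SE 0.0941, adjusted p = 0.631) and Atp5me -0.10 (SE 0.0886, adjusted p = 0.701). Sdhd (-0.05, adjusted p = 0.637) was second to Sdha in complex II and Uqcrfs1 (-0.08, adjusted p = 0.487) second to Uqcr10 in complex III by the size of the fold change. Cox4i2 alone was above 0, at 0.11 (adjusted p = 0.712).

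The 4 patterns were each set against the same 24 controls, so their values are given side by side and not as independent comparisons. In CRMP1+CRMP2, genes of every complex fell. With edgeR, 15 of the 43 genes were lower at FDR < 0.1 and 0 were higher, 1 of complex II, 4 of complex III, 5 of complex IV and 5 of complex V, where 6.56% of 12691 genes were lower and 11.4% passed in either direction. At an unadjusted p under 0.05, 31 were lower, where 13.1% of all genes were. The median log2 fold change was -0.20 over the 43 genes (0.01 over all genes), with -0.14 in complex II, -0.22 in complex III, -0.22 in complex IV and -0.18 in complex V. Whether the complexes differ from each other in this change was not tested.

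That count rests on single litters. Without the CRMP1+CRMP2 litter of 2 males, 0 of the 43 genes passed in edgeR, where 41 of 12653 genes of the whole table did. Under an unadjusted p of 0.05 were 6 of the 43 and 1275 of the whole table. The medians then were -0.08 in complex II, -0.14 in complex III, -0.13 in complex IV and -0.10 in complex V. Without the fourth litter, which had the highest levels of the pattern, 38 of the 43 passed, and 2889 of 12678 genes of the whole table did. Without the third litter 5 passed (799 of 12658 genes), and without the first 13 (1491 of 12660 genes). The count over the whole table thus moved with the litters too. The mean log2 RPKM over the 43 genes was 7.02, 6.76, 6.89 and 7.24 in the 4 litters, the second being that of 2 males, and 7.41, 7.10, 7.29 and 7.09 in the 4 control litters of batch 2. The fourth litter thus lay among the controls and the other three lay below every control litter of their batch. Litters of each other pattern of batch 2 lay there too. These were at 6.93 and 6.95 in LDHA/B+CRMP1+STIP1, the latter 1 animal, at 6.91 in CRMP1+GDA and at 6.90 in STIP1+NSE. The remaining litters of these patterns lay above the lowest control litter. When the counts of littermates were added up for CRMP1+CRMP2, 0 of the 43 passed and 22 had an unadjusted p under 0.05. Of all 12691 genes, 0 and 1435 did. When litter entered as a random effect, these were 0 and 25 of the 43, and 33 and 1957 of all genes.

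Within batch 2, in 1 fit of its 43 animals with sex, 1 of the 43 genes passed FDR < 0.1 in CRMP1+CRMP2 (0.361% of genes were lower and 0.785% passed in either direction), and 24 were lower at an unadjusted p under 0.05 (9.63% of all genes). The gene that passed was Sdha. The medians of -0.14, -0.20, -0.22 and -0.17 for complexes II to V were close to those against all controls. In none of the 43 genes did the 8 animals separate from the 12 controls of batch 2. A median of 6 of the 8 animals lay below the control median. In the other patterns of batch 2 none of the 43 genes separated either. There the median was 2 of 6 animals in CRMP1+GDA, 4 of 9 in LDHA/B+CRMP1+STIP1 and 4 of 8 in STIP1+NSE. Neither count was made over all genes, so no share of the table can be set beside them.

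Sdha, the catalytic subunit of complex II (rn7 chr1:28935965-28960936, plus strand, 15 exon intervals), carries the NRF1 matches shown above. The 8 CRMP1+CRMP2 animals had 66.03 and 68.08 RPKM in the first litter, 60.67 and 60.63 in the litter of 2 males, 62.24 and 64.58 in the third and 78.05 and 77.53 in the fourth. The 12 controls of batch 2 had 68.97, 78.93 and 85.42 RPKM as lowest, median and highest, and those of batch 1 had 58.37, 68.39 and 75.89. All 8 animals were below the control median of batch 2 and 6 were below its lowest control, while they overlapped with the controls of batch 1. The other patterns of batch 2 also lay low against these controls. Below their median were 6 of 6 CRMP1+GDA, 8 of 9 LDHA/B+CRMP1+STIP1 and 7 of 8 STIP1+NSE animals, and below the lowest 2, 4 and 3. In CRMP1+CRMP2 the log2 fold change was -0.16 against all controls (SE 0.0515, edgeR adjusted p = 0.0683) and -0.21 in batch 2 (SE 0.0545, adjusted p = 0.0927). Without the litter of 2 males it was -0.13 (adjusted p = 0.427), and without the third litter -0.13 (adjusted p = 0.201). Sdhb, Sdhc and Sdhd did not pass, at -0.14, -0.12 and -0.14 (adjusted p = 0.106, 0.206 and 0.154).

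In complex III, Uqcrfs1, the Rieske protein, was read at 98.67, 110.7 and 125.3 RPKM (lowest, median, highest) in CRMP1+CRMP2, at 100.2, 125.2 and 154.1 in controls of batch 2 and at 112.4, 136.8 and 142.7 in controls of batch 1. The animals lay in the lower part of the control range, 7 of 8 below the batch 2 control median and 1 below its lowest control. The log2 fold change was -0.22 (SE 0.0586, edgeR adjusted p = 0.0313), and -0.16 without the litter of 2 males (adjusted p = 0.371). Uqcrq (-0.31, SE 0.0976, adjusted p = 0.0606), Uqcr10 (-0.29, SE 0.0959, adjusted p = 0.0679) and the core subunit Uqcrc1 (-0.16, adjusted p = 0.0822) fell too. Uqcr10 was 72.03 RPKM in 1 of the 2 males of the second litter and 104.7 to 140.3 in the other seven animals. Uqcrb, Uqcrc2, Uqcrh and Uqcr11 had -0.12 to -0.24 and did not pass.

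In complex IV, Cox5a, a subunit on the matrix side of the enzyme, was read at 192.7, 232.4 and 269 RPKM in CRMP1+CRMP2, at 234.4, 259.5 and 307.2 in controls of batch 2 and at 245.7, 320.1 and 364 in controls of batch 1. Of the 8 animals, 4 lay below every control of batch 2. The log2 fold change was -0.24 (SE 0.0657, edgeR adjusted p = 0.031), and -0.16 without the litter of 2 males (adjusted p = 0.427). Cox7b (-0.29, SE 0.0798, adjusted p = 0.0339), Cox6c (-0.22, adjusted p = 0.0744), Cox6a1 (-0.29, adjusted p = 0.0815) and Cox4i1 (-0.21, adjusted p = 0.0923) fell as well. In Cox7b, 6 of the 8 animals, those outside the fourth litter, ran from 71.28 to 83.99 RPKM and lay below the lowest control of batch 2 (85.12). The other complex IV genes did not pass, among them Cox5b at -0.22 (adjusted p = 0.215), whose 6 animals outside the fourth litter also lay below every control of the batch. Cox4i2 differed in sign, at 0.20 (adjusted p = 0.478), and its share of the summed Cox4 RPKM was 0.795% to 1.16% in CRMP1+CRMP2 against 0.294% to 0.983% in controls of batch 2.

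In complex V, the inhibitor Atp5if1 (rn7 chr5:144738950-144742668, minus strand) had the smallest p of the 43 genes. Its 8 values were 164 and 160.8 RPKM in the first litter, 146.5 and 159.6 in the litter of 2 males, 159.3 and 173.8 in the third and 203.2 and 206.9 in the fourth. Controls had 177.4, 196.5 and 245.3 RPKM in batch 2 and 186.2, 234.2 and 259.5 in batch 1, so 6 of the 8 animals lay below every control of either batch and those of the fourth litter lay within both ranges. The log2 fold change was -0.30 (SE 0.071, edgeR adjusted p = 0.0145), -0.26 in batch 2 (adjusted p = 0.14) and between -0.39 and -0.23 with 1 litter left out, the last value without the litter of 2 males (adjusted p = 0.259). Atp5f1e, the epsilon subunit, was read at 205.9, 252.5 and 313.3 RPKM against 238.2, 293 and 380 in controls of batch 2 and 281.1, 388.2 and 462.4 in those of batch 1, and fell by 0.33 on the log2 scale (SE 0.0909, adjusted p = 0.032). Atp5f1d (-0.19, SE 0.0613, adjusted p = 0.0676), Atp5pd (-0.22, SE 0.0747, adjusted p = 0.0744) and Atp5mc1 (-0.26, adjusted p = 0.0869) fell too. Of the subunit c genes, Atp5mc2 (-0.13, adjusted p = 0.314) and Atp5mc3 (-0.11, adjusted p = 0.376) did not pass. The catalytic subunits had -0.13 (Atp5f1b, adjusted p = 0.109) and -0.09 (Atp5f1a, adjusted p = 0.191).

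**Figure D4:**
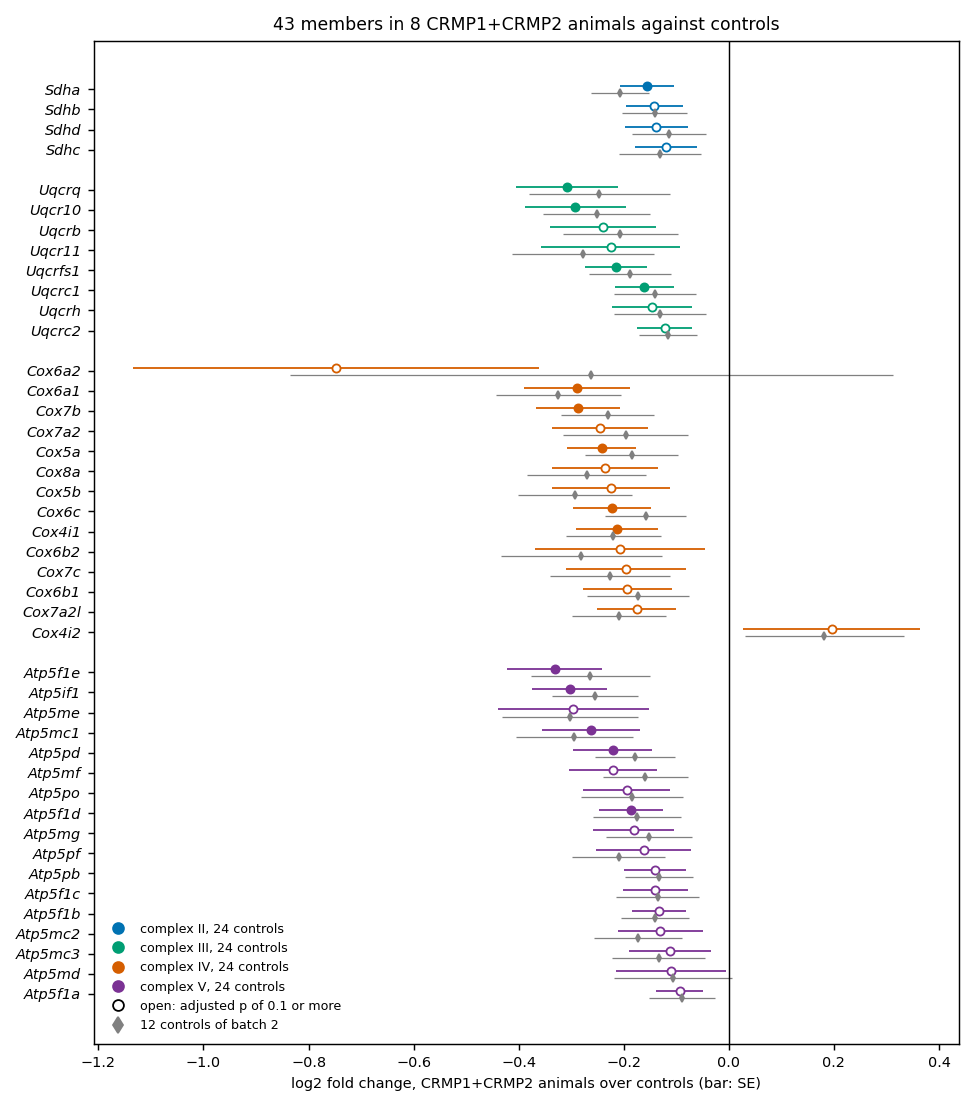
Log2 fold change of each of the 43 genes in 8 CRMP1+CRMP2 animals, with SE bars, against 24 controls (circles, coloured by complex, filled where the adjusted p was under 0.1) and against the 12 controls of batch 2 (grey diamonds). Points lie left of 0 for every gene but Cox4i2, and 15 circles are filled.

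Genes outside the rule also passed in this comparison, to be read against the 6.56% lower and 11.4% in either direction among all genes. These calls rest on animals too: with the counts of littermates added up 0 genes of the whole table passed in place of 1445 (1435 had an unadjusted p under 0.05), and with litter as a random effect 33 did. Of 34 complex I subunits 15 were lower in edgeR (Ndufb8 -0.28, Ndufs5 -0.29 and Ndufb7 -0.24), and of 17 enzymes of the tricarboxylic acid cycle 6 (Sucla2 -0.21, Idh3a -0.17 and Idh3g -0.15). Of 20 other mitochondrial proteins 4 were lower, among them the ATP carrier Slc25a4 (-0.23) and the phosphate carrier Slc25a3 (-0.18). Both Ndufa4 (-0.20) and Cyc1 (-0.15), which belong to complexes IV and III, were lower, and Cycs, cytochrome c, did not pass (-0.20, adjusted p = 0.12). Of 31 assembly factors 2 passed, a share near that of all genes, Ttc19 of complex III (-0.23) and Sco1, a copper chaperone of complex IV (-0.21). Among 16 regulators of mitochondrial biogenesis, also near that share, 0 were lower and 1 was higher, the GABP subunit gene Gabpa (0.18, SE 0.0505, adjusted p = 0.0318).

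Of 76 ribosomal protein genes 16 were lower (median log2 fold change -0.16). Outside the respiratory, ribosomal and other listed genes, 571 genes under 800 bases of exon held 59 that were lower and 9 that were higher (median -0.09). The 11801 such genes of 800 bases or more held 708 lower and 587 higher (median 0.01). Within the respiratory genes, the log2 fold change had a Spearman's rho of 0.525 with exon length over 40 genes. All 9 choroid plexus markers were higher, summing to 199.8 to 3404 CPM in CRMP1+CRMP2 (median 1151) against a median of 14.15 CPM in controls of batch 1 and 734.1 CPM in those of batch 2. The 6 pineal markers, higher by test, summed to a median of 5.586 CPM (3.149 to 254.1) in CRMP1+CRMP2 and 4.164 CPM (2.669 to 6.75) in controls of batch 2. Of these 6, 4 were over 1 CPM in 2 of the 8 animals and in 0 controls and entered the test through them, so their count of calls carries no weight. The 8 neuron markers, of which 3 were lower, summed to 7969 to 9710 CPM (median 8914) in CRMP1+CRMP2 and to 8683 to 10300 CPM (median 9300) in controls of batch 2. Of 8 oligodendrocyte lineage markers 2 were lower, Sox10 (-0.30, edgeR adjusted p = 0.0232) and Olig1 (-0.27, adjusted p = 0.0397), and the 8 summed to 431.5 to 581.2 CPM (median 449.6) against 446.1 to 590.4 CPM (median 509.1) in controls of batch 2. Of 6 erythroid markers 1 was higher, Hbb (0.71, adjusted p = 0.0873), and they summed to a median of 816.8 CPM (518.7 to 1636) against 683.2 CPM (259.3 to 1307). The surrogate variable of this fit had an absolute r of 0.853 with batch and of 0.288 with the mean level of the 43 genes. The part of exon length, of these other tissues and cell types or of the litter in the change of the respiratory genes was not tested.

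LDHA/B+CRMP1+STIP1 was sequenced in both batches. Against the 24 controls 0 of the 43 genes passed FDR < 0.1 in edgeR (0.0157% of all genes did) or in DESeq2, and 1 was under an unadjusted p of 0.05, Sdha at -0.06 (SE 0.0292, adjusted p = 0.647). Of all 12700 genes 911 were under that unadjusted p in edgeR. The median log2 fold change of the 43 genes was -0.04 (-0.0012 over all genes). In batch 1, 41 of the 43 genes were below 0 (median -0.09) and 3, Uqcrh, Cox6c and Atp5if1, were lower at an unadjusted p under 0.05, where 2.69% of all genes were. None passed FDR < 0.1 there, as in the whole table (0%). In batch 2, 21 of the 43 were below 0 (median 0.00), 0 passed (0.0551% of all genes) and only Sdha was under an unadjusted p of 0.05 (-0.13, SE 0.044, adjusted p = 0.611). How many of all genes were below 0 is not given here for either batch. When each batch was fitted alone, the median over all genes was 0.0013 in batch 1 and -4e-04 in batch 2. The difference between the batches was tested by an interaction, in which 0 of the 43 genes passed at either threshold (0.11% of all genes did at FDR < 0.1), with a median of 0.09.

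CRMP1+GDA and STIP1+NSE showed 0 of the 43 genes past FDR < 0.1 in edgeR, where 0% and 0.0474% of all genes passed, and 0 in DESeq2. In CRMP1+GDA the median log2 fold change was 0.02, and it was 0.16 without the second litter, -0.04 without the first and -0.04 without the third. Its sign therefore depends on which litter enters. Without the second litter 10 of the 43 had an unadjusted p under 0.05, as did 1858 of 12610 genes of the whole table. With all litters, Sdha was the only one of the 43 under an unadjusted p of 0.05 (-0.11, SE 0.0501, adjusted p = 0.999), with 66.21 and 67.0 RPKM in the second litter and 72.45 to 78.22 in the other animals. Of all 12641 genes 462 were under that unadjusted p. In STIP1+NSE the median was -0.05 and 39 genes were below 0, and without its second litter the median was 0.01 and 13 were below 0. Over all genes the median was -0.0012, and -0.0022 without that litter, and how many were below 0 is not given here. Cox6a2 (0.86), Sdha (-0.10) and Cox7a2l (-0.14) had an unadjusted p under 0.05, and their adjusted p was 1.00 in each case. Of all 12660 genes 404 were under that unadjusted p. Cox6a2, which has few counts, was 7.555 RPKM in 1 STIP1+NSE female and 1.693 RPKM in the next animal.

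In the fit of batch 2 none of the 43 genes passed in LDHA/B+CRMP1+STIP1, CRMP1+GDA or STIP1+NSE, nor did any gene of the table (0% in each), and at an unadjusted p under 0.05 there were 1, 1 and 0 of the 43. Those were Sdha in LDHA/B+CRMP1+STIP1 (-0.13) and Cox4i2 in CRMP1+GDA (0.39). The share of all genes at that unadjusted p is not given here for these patterns. A test of any difference among the 5 groups of that batch called 0 of the 43 with edgeR (0.00785% of all genes) or DESeq2, and Sdha (adjusted p = 0.583) and Atp5if1 (adjusted p = 0.635) were the 2 under an unadjusted p of 0.05. Of all 12738 genes 991 were under it in edgeR. Between males and females none of the 43 genes passed in edgeR or DESeq2, nor was any under an unadjusted p of 0.05 in edgeR (0.0641% of all genes passed FDR < 0.1, and 585 of 12477 were under that unadjusted p), with a median log2 fold change of -0.01.

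Controls alone were compared between the batches, since unexposed animals were sequenced in both. Of the 43 genes 16 differed at FDR < 0.1 in edgeR, 10 lower and 6 higher in batch 2, against 20.1% lower, 21.4% higher and 41.5% in all among 12477 genes. The 43 genes thus did not stand out from the whole table by this count. The 4 control litters of batch 2 and the 3 of batch 1 bear on the split. Without the fourth litter of batch 2, 2 of the 43 were lower and 8 higher. Without the second of that batch these were 5 and 7, and without the first 13 and 3. Among all 12477 genes, the same 3 runs had 3891, 4920 and 5207 that passed, of which 1798, 2496 and 2600 were lower. By these counts the split moved more among the 43 genes than over all genes, which was not tested. When the counts of littermates were added up, 4 of the 43 passed, and as many when litter entered as a random effect. Of all 12477 genes 1945 and 2765 passed in these runs. Sdha (0.20, SE 0.0423, adjusted p = 0.000535), Cox5b (0.32, SE 0.108, adjusted p = 0.0245) and Cox7a2l (0.20, SE 0.0632, adjusted p = 0.0176) were higher in batch 2. Cox6c (-0.30, SE 0.071, adjusted p = 0.00198), Cox5a (-0.21, SE 0.0617, adjusted p = 0.00916) and Atp5f1e (-0.29, SE 0.0897, adjusted p = 0.0147) were lower, as were Atp5mf (-0.25), Cox7a2 (-0.25) and Cox7b (-0.19). By complex, 2 genes were higher in complex II, 1 was lower in complex III, 5 were lower and 2 higher in complex IV, and 4 were lower and 2 higher in complex V. Whether the complexes differ in this was not tested.

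The largest change was that of Cox6a2, the heart and muscle form of subunit 6a (rn7 chr1:182788528-182789274, minus strand). It was read at 0.5703, 3.946 and 8.56 RPKM (lowest, median, highest) in the 12 controls of batch 1 and at 0.5739, 1.023 and 2.557 RPKM in the 12 of batch 2. Its log2 fold change was -1.91 (SE 0.388, edgeR adjusted p = 0.00042), -1.19 without the third control litter of batch 1 (adjusted p = 0.0282) and -1.57 with litter as a random effect (limma adjusted p = 0.0776). The LDHA/B+CRMP1+STIP1 animals of batch 1 had 0.5023, 3.706 and 6.332 RPKM, and those of batch 2 had 0, 0.9084 and 3.157. The ranges of the batches overlapped, although most animals of batch 1 were above most of batch 2. These levels rest on 6 to 118 counts in batch 1 and on 0 to 109 in batch 2, where 2 libraries held none. The 9 markers of striated muscle summed to 18.5 to 33.03 CPM in batch 1 and to 18.54 to 39.97 CPM in batch 2, ranges that overlap, and most of it was Acta1. Of the 9, Acta1, Myh3, Myh8 and Tnnt2 were read in every library, Ckm, Tnnt3 and Myl1 were at 0 in 2 to 6 libraries, Actc1 in 26 and Tnni2 in 60. On the log2 scale the sum had an r with Cox6a2 of -0.042 over the 28 animals of batch 1 and of 0.423 over the 43 of batch 2, as a description. The part of muscle RNA in the levels of Cox6a2 was not tested.

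**Figure D5:**
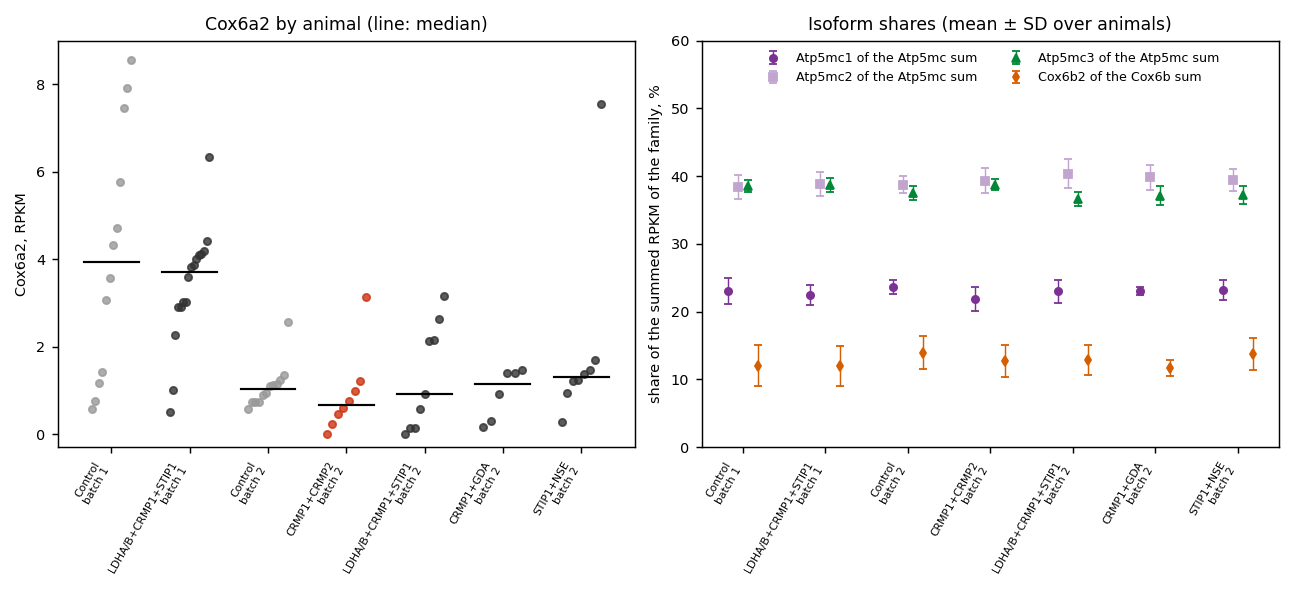
Left, Cox6a2 in RPKM for each animal of the 7 groups, with a line at the median: 3.946 in controls of batch 1 and 1.023 in controls of batch 2. Right, mean ± SD over animals of the share of Cox6b2 in the Cox6b sum and of Atp5mc1, Atp5mc2 and Atp5mc3 in the Atp5mc sum, in percent; Atp5mc1 holds the smallest Atp5mc share in every group.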

How the data were processed

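Per the study's methods and the submitters' processing notes, the authors aligned paired-end poly-A reads to the rat genome rn7 with STAR 2.5.4b, counted them per gene with featureCounts, and deposited raw counts for 71 libraries in 1 table with summed exon lengths per gene. Annotation release, strand setting and handling of reads that map to several places are not given in the sources used here. Of the counts from 1 to 9, 74.5% were even, so counts were also halved as an alternative. All columns of values matched a sample (0 did not). Depth ran from 24880182 to 36234952 counts per library, and the limits given for counts of 0 cover counting error only.

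Animals were grouped by autoantibody label, and by title into batch 2 (titles that begin with MAR) and batch 1 (all other titles). The tests were edgeR 4.0.16 quasi-likelihood tests fitted across all genes that passed the filter (TMM scaling, factors 0.9408 to 1.057), in R 4.3.3 with limma 3.58.1, adjusted by Benjamini-Hochberg at FDR < 0.1. Genes needed at least 1 CPM in at least 8 libraries, or over 1 CPM in at least 2 for single patterns and batch 2. The general contrast and the patterns had 1 surrogate variable (sva 3.50.0). Fits of batch 2, of controls and of LDHA/B+CRMP1+STIP1 by batch had sex, and that of sex had group and batch. RPKM used TMM-scaled totals and the exon length of the table. The mean log2 RPKM had a prior count of 2. Litters share a dam, so the p-values, taken over animals, treat littermates as independent except where stated.

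Each pattern was tested against the same 24 controls. Alternatives were DESeq2 1.42.0, other scalings, no filter, other covariates, 1 batch only, counts summed per litter, litter as a random effect, halved counts and each litter left out. Named were members past FDR < 0.1 (statistics for up to 10 with the smallest p), the 2 with the largest change per complex in the general contrast, the highest and lowest level per complex, and isoforms. Other genes were counted by lists, naming up to 3 with the smallest p. Muscle genes and 3 low isoforms were singled out after values were seen. The members and lists were chosen with earlier results of these data known. The fits of CRMP1+CRMP2 and CRMP1+GDA were run on simulated counts to see that changes put in were found. Those counts had no litter effect, and the other fits were not simulated.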

Additional observations from a re-analysis of the deposited data

Results flagged for a closer look

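In each group of 4 to 10 animals, the highest and the lowest value were compared with the nearest other animal by Dixon's test at 95% confidence, for the RPKM of each of the 43 genes and for the mean log2 RPKM of each complex and of all 43 together. Of 192 groups of values 6 stood apart (3.12%), where chance gives about 1 in 20. A single CRMP1+GDA female of the second litter was the lowest in 3 of the 6: Atp5md, a membrane subunit of the ATP synthase, was 193.3 RPKM there and 320 in the nearest animal, Atp5pd, a stalk subunit, 165.3 and 208.7, and Cox6c of complex IV 183.9 and 262.4. Cox6c was highest, at 328.3 RPKM, in an LDHA/B+CRMP1+STIP1 female of batch 2, with 284 in the nearest. The muscle form Cox6a2 was 3.133 RPKM in a CRMP1+CRMP2 female (next 1.225) and 7.555 RPKM in a STIP1+NSE female (next 1.693). No cause was tested for any of these values.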

How the results depend on the processing

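For CRMP1+CRMP2 the 15 genes past FDR < 0.1 became 9 under upper-quartile normalization, 7 without normalization factors, 2 with batch and sex as covariates, and 0 in batch 2 alone (8 animals and 12 controls), with counts summed per litter and with the litter as a random effect. Of all 12691 genes 1445 passed in the main run. In these runs 1378, 1364, 491, 127 (of 12605), 0 and 33 genes of the whole table passed, in the same order. Leaving out 1 litter of the pattern gave 0 to 38, 0 without the litter of 2 males and 38 without the fourth. In those 2 runs 41 and 2889 genes of the whole table passed. DESeq2 gave 19, median-ratio size factors 15, no filter 14, no covariate 14 and halved counts 17. The whole table gave 1680, 1408, 1225 (of 15767), 1010 and 1471 (of 12696) there. For controls of batch 2 against batch 1 the 16 genes became 4 with counts summed per litter and 4 with the litter as a random effect, and 10 to 16 with 1 litter left out, 10 without the fourth control litter of batch 2. Of all 12477 genes 5175 passed in the main run. The whole table gave 1945 with summed counts, 2765 with the random effect and 3891 to 5207 with 1 litter left out. The general contrast, LDHA/B+CRMP1+STIP1, CRMP1+GDA, STIP1+NSE, sex and the 5 groups of batch 2 called 0 of the genes in every alternative run. With summed RPKM in place of mean log2 RPKM, the median difference from complex II was 1.3013 for complex III, 3.0003 for complex IV and 3.6215 for complex V. For complex IV it was -0.8946 with all genes and 1.3786 without the 3 rare isoforms, chosen after seeing the data. The median log2 fold change of the 43 genes in CRMP1+GDA also turned from 0.0171 to -0.0147 with counts summed per litter and to -0.011 with the litter as a random effect. Control litters were not left out of the comparisons of the patterns.

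Of the settings run for the 10 genes with the smallest p, 90 of 150 kept their call in CRMP1+CRMP2 and 60 lost it in the same direction, against 129 and 21 for the batches of controls. The causes of these shifts were not tested. No paired analysis was possible because the animals of different groups come from different dams and their numbers pair nothing. Depth limits Cox6a2 and Cox4i2, which have few counts, and the 3 genes left untested.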
